A study of Mus musculus with 6 samples.

Results

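Genes of sterol synthesis and of its regulation by the SREBP2 pathway were examined in mouse astrocytes exposed to pulsed radiofrequency, hereafter PRF, in which brief trains of radiofrequency current are applied. The set was given as a list of 27 gene symbols, chosen by function, and a gene was taken when the transcript named for an array probe mapped to its symbol. This found 26 of the 27 genes, through 43 probes, among 15069 named genes that were tested. No probe matched Acat2, the thiolase that makes acetoacetyl-CoA, and it was not analysed here. The cells were C8D1A, an established cloned mouse astrocyte line, so the values describe 1 clone. There were 3 arrays of PRF-treated cells and 3 of untreated Control cells, from 3 independent experiments per the series' design text. Cells of both groups grew for 6 days with 10% serum before 24 h in serum-free medium. The sources used here give neither the PRF settings nor the time to RNA extraction.

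Cells make cholesterol from acetyl-CoA through mevalonate, squalene and lanosterol, and the mevalonate branch also supplies the isoprenoids that anchor small GTPases to membranes. The genes of these enzymes are activated by SREBP2, a transcription factor held in the endoplasmic reticulum in complex with SCAP, its escort, and INSIG, which retains the complex when sterols are plentiful. When sterols run low the complex moves to the Golgi, SREBP is cleaved and its N-terminal part enters the nucleus, where it binds sterol regulatory elements, commonly beside sites for NF-Y (CCAAT boxes) and Sp1 (GC boxes). SREBP1, from the related gene Srebf1, acts more on fatty acid synthesis. Astrocytes are a main site of cholesterol synthesis in the adult brain, where cholesterol cannot be taken up from blood.

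After PRF, 5 of 26 members rose and 1 fell. The genes that rose encode enzymes: Msmo1 (1.26-fold), Hsd17b7 (1.24-fold), Pmvk (1.22-fold), Ggps1 (1.19-fold) and Fdps (1.19-fold). The gene that fell was Srebf1 (1.21-fold lower). Across the array, 16.2% of tested genes were called higher and 13.2% lower, against 19.2% and 3.85% of the members, so the share of members called higher was close to that of all genes. The fall of Srebf1 was called under each of 5 ways of scaling the arrays. The 5 rises were called neither with the signals left as deposited nor with arrays set to the spike-in controls. In those 2 scalings the median change of all genes was itself negative, at -0.15 and -0.20. Over all 20 alternative settings, Srebf1 was called in 10.

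The promoter stretches of 4 members are shown to set side by side which of the letters that SREBP2, NF-Y and Sp1 are known to bind lie before the gene that fell and before enzymes of early and late steps. The sterol regulatory element letters are in that of Hmgcs1 and not in those of Msmo1, Pmvk and Srebf1. Only the exact letters given below were marked, so their absence does not show that a stretch lacks such an element. Each is the 200 bases before a RefSeq transcription start in build GRCm38.p6, written 5′ to 3′ on the strand of the gene. Capitals mark the letters of a sterol regulatory element (TCACCCCAC), a CCAAT box (CCAAT), a GC box (GGGCGG) or an E-box (CACGTG), on either strand. Hmgcs1 lies at chr13:119690151-119690350 on the plus strand, Msmo1 at chr8:64733579-64733778 on the minus strand, Pmvk at chr3:89454341-89454540 on the plus strand and Srebf1 at chr11:60210472-60210671 on the minus strand. RefSeq lists 2 windows for Pmvk and 3 for Srebf1, and the one with most matches was taken. For Srebf1 another window had as many matches, GC boxes without a CCAAT box, and the one at the lower chromosome position was taken.
Hmgcs1: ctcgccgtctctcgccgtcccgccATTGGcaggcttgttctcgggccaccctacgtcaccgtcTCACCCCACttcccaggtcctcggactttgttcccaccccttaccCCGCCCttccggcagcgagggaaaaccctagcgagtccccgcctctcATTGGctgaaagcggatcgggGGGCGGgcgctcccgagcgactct
Msmo1: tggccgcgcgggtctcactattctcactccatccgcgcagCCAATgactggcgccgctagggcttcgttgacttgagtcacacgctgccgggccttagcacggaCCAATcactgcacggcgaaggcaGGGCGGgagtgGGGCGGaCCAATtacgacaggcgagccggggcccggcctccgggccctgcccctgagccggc
Pmvk: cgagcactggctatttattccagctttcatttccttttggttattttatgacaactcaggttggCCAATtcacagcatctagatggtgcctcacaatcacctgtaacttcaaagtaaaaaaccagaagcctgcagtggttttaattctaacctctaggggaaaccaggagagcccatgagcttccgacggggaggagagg
Srebf1: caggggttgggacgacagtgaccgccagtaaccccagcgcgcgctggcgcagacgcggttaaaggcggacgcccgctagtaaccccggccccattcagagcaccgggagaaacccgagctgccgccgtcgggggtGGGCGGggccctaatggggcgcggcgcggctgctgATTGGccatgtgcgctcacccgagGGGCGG

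Windows running from 250 bases before to 50 bases after a start were found for 22 of the 27 listed genes. The sterol regulatory element letters were in the window of 1 of these 22, Hmgcs1, where they began at position -137 relative to the start, against 0.614% of all 27025 genes with a window and 0.704% of the 11930 that were also tested on the arrays. Allowing any base at the fifth position (TCACNCCAC) added no member and raised the shares to 1.44% and 1.42%. Other variants of the element were not searched, so these counts do not show which members lack one. The CCAAT letters were in 20 of 22 members, against 41.1% of all genes and 42.7% of tested genes. GC box letters were also in 20 of 22, against 38.2% and 62.4%. The E-box was in 5 of 22, against 8.09% and 10.9%. Matches to different motifs did not overlap in the members, apart from the 2 forms of the sterol regulatory element. In the stretches shown of genes that passed the test, Msmo1 had 3 CCAAT boxes and 2 GC boxes and Pmvk had 1 CCAAT box. That of Srebf1 had 1 CCAAT box and 2 GC boxes. Hsd17b7 and Ggps1 also passed, and their windows, not printed, held CCAAT boxes, with GC boxes in that of Hsd17b7 only. Fdps passed and had no window. A match of letters is a description of the window, and no binding was measured in these cells.

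On the arrays, 59.5% to 63.9% of 56605 probes were well above background, and 1 spot was saturated on 1 array. All 43 member probes were well above background on all 6 arrays, so no member entered the test through 1 group alone. Arrays correlated at 0.994 to 0.997 within groups and at 0.959 to 0.977 between them. Of 10 astrocyte markers 8 were well above background on all arrays, while Slc1a3 and Gja1, glial glutamate transporter and gap junction genes, were so on none. Some markers of other cell types were also detected on all arrays (2 of 4 for neurons, 4 of 4 for the oligodendrocyte lineage, 2 of 4 for microglia and 2 of 4 for fibroblasts). The summed linear signal of the tested markers, in units of the 75th percentile, ran from 68.3 to 72.0 on PRF arrays and from 60.8 to 66.4 on Control arrays for astrocytes, and from 13.0 to 17.6 on PRF arrays and from 8.62 to 9.04 on Control arrays for microglia. For neurons it was 21.1 to 25.4 on PRF arrays and 19.8 to 23.1 on Control arrays. For the oligodendrocyte lineage it was 73.5 to 79.8 on PRF arrays and 64.0 to 69.9 on Control arrays, and for fibroblasts 0.374 to 0.395 on PRF arrays and 0.264 to 0.340 on Control arrays. Of the listed markers, Rbfox3 (neurons), Cx3cr1 and Aif1 (microglia) and Lum (fibroblasts) were well above background on no array. Among the tested markers, Glul, Snap25, Mbp, Itgam and Col1a1 were called higher and Mog lower. Across all tested genes 16.2% were called higher and 13.2% lower. The part of other cell types in the results was not tested. Because each array was hybridised with RNA of many cells, a change in the number of cells that express a gene cannot be told apart from a change in RNA per cell.

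Levels below are log2 signals relative to the 75th percentile of each array, and changes are PRF minus Control on that scale. Adjusted p-values are from limma with Benjamini-Hochberg adjustment over all 15069 genes, with a threshold of 0.05. The probe with the highest mean stood for a gene with several probes. With 3 arrays a group, the number of arrays limits the precision. The p-values measure the spread between the 3 experiments.

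Among the regulators, Srebf1 was the only one of 5 to pass, where 16.2% of all tested genes were called higher and 13.2% lower. Its levels were 3.62, 3.74 and 3.80 on the PRF arrays and 3.97, 3.96 and 4.05 on the Control arrays. Every PRF array lay below every Control array. The change was -0.27 (SE 0.07, adjusted p = 0.037). The call was kept when PRF replicate 3 was left out (adjusted p = 0.0361) and missed without any of the other 5 arrays (adjusted p up to 0.108), while the change stayed between -0.31 and -0.22.

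Srebf2, which encodes SREBP2 itself, had levels of 1.45, 1.51 and 1.32 on PRF arrays and of 1.19, 1.32 and 1.37 on Control arrays. The groups overlapped and the change of 0.13 did not pass (95% interval -0.07 to 0.34, adjusted p = 0.277). The log2 ratio of Srebf1 to Srebf2 within an array does not depend on the scaling by a constant. Set to a mean of 0 over the Control arrays, it was -0.53, -0.48 and -0.22 on PRF arrays and 0.08, -0.06 and -0.02 on Control arrays. The PRF arrays all lay below the Control arrays, and the mean ratio was 0.754 times that of Control. This pair was chosen after its values were seen and was not tested.

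Scap, the escort of both SREBPs, had levels of 3.78, 3.89 and 3.71 on PRF arrays and of 3.88, 3.93 and 3.91 on Control arrays. Only PRF replicate 2 reached the Control range, and the change of -0.11 did not pass (95% interval -0.28 to 0.06, adjusted p = 0.291). Insig1, itself a well known SREBP target, had levels of -0.25, -0.45 and -0.45 on PRF arrays and of -0.70, -0.42 and -0.34 on Control arrays. Here Control replicate 1 was the lowest of the 6, the groups overlapped, and the change of 0.11 had a wide interval (-0.18 to 0.39, adjusted p = 0.538). Insig2, its paralogue, had levels of 3.13, 3.23 and 3.1 on PRF arrays and of 3.15, 3.11 and 3.08 on Control arrays. Its change of 0.04 was the smallest in size of the 26 (95% interval -0.12 to 0.20, adjusted p = 0.703), and its 2 further probes had changes of 0.04 and 0.01.

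**Figure D1:**
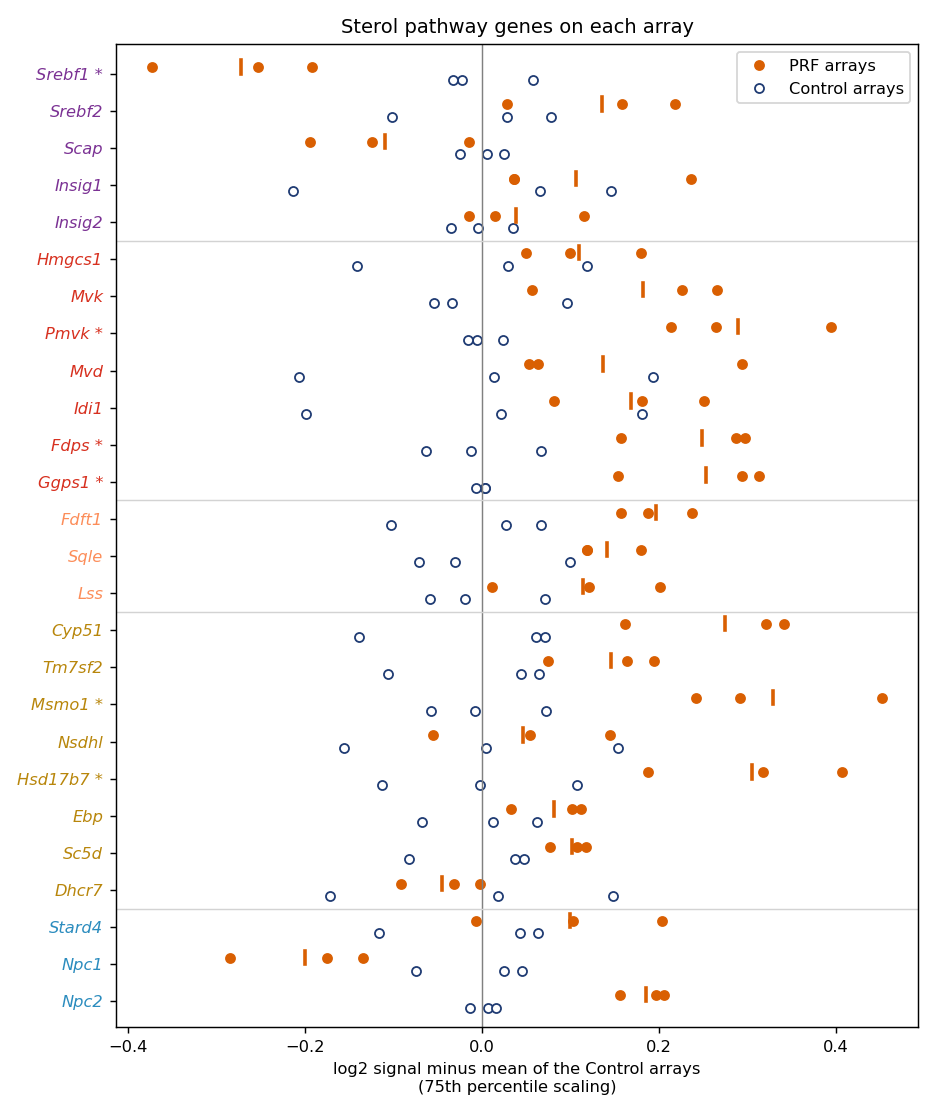
Log2 signal of each of 26 genes on each array minus the gene's mean over the 3 Control arrays, after subtraction of each array's 75th percentile. Filled points are PRF arrays, open points below them Control arrays, vertical ticks PRF means, and gene name colours separate SREBP regulators, mevalonate and isoprenoid steps, squalene to lanosterol, lanosterol to cholesterol and sterol transport, from top to bottom. Asterisks mark the 6 genes with an adjusted p below 0.05, of which Srebf1 alone lies to the left.

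Of the 7 measured genes of the mevalonate and isoprenoid steps, 3 rose, 0 fell and 4 did not pass, with a median change of 0.18. Across all tested genes 16.2% were called higher and 13.2% lower, and whether the steps differ from this was not tested. Pmvk, phosphomevalonate kinase, had levels of 3.86, 3.73 and 3.68 on PRF arrays and of 3.46, 3.49 and 3.45 on Control arrays. The Control arrays were close together and all PRF arrays lay above them. The change was 0.29 (SE 0.07, adjusted p = 0.0254), and the further probe of Pmvk also rose, by 0.39 (SE 0.07, adjusted p over all probes = 0.00736). Fdps, which makes farnesyl diphosphate, the branch point to squalene and to prenyl groups, had levels of 6.16, 6.15 and 6.02 on PRF arrays and of 5.85, 5.93 and 5.80 on Control arrays. The groups did not overlap and the change was 0.25 (SE 0.07, adjusted p = 0.0462).

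Ggps1, which extends farnesyl to geranylgeranyl diphosphate for protein prenylation, had levels of 0.98, 1.14 and 1.12 on PRF arrays and of 0.83, 0.83 and 0.82 on Control arrays. PRF arrays again all lay above Control arrays, and the change was 0.25 (SE 0.07, adjusted p = 0.0365). Its 5 probes did not move alike. Further probes had changes of 0.28, 0.27 and 0.16, and the fifth, which the array assigns to the same transcript as the brightest one, had a change of -0.18. On that probe the PRF arrays read -1.01, -0.93 and -0.89 and the Control arrays -0.65, -0.81 and -0.83, also without overlap (adjusted p over all probes = 0.122). With all 5 probes averaged the change was 0.16 and did not pass (adjusted p = 0.113). Ggps1 was the only gene of 12 with several probes whose probes differed in sign.

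The other mevalonate genes did not pass. Hmgcs1, whose product condenses acetoacetyl-CoA with acetyl-CoA and whose promoter holds the sterol regulatory element shown above, averaged 4.58 ± 0.07 on PRF arrays and 4.47 ± 0.13 on Control arrays (SD, n = 3 each), and the 0.11 between them (95% interval -0.10 to 0.32, limma adjusted p = 0.398) was smaller than the spread of the Control arrays. Mvk, mevalonate kinase, had a change of 0.18 (95% interval -0.02 to 0.39, adjusted p = 0.16), and its dimmer probe rose by 0.31 (adjusted p over all probes = 0.0376). Averaged over both probes, Mvk passed (0.25, adjusted p = 0.045). Mvd, which decarboxylates the diphosphate, had a change of 0.14 (95% interval -0.16 to 0.43, adjusted p = 0.447) and Idi1, which isomerises isopentenyl diphosphate, one of 0.17 (95% interval -0.10 to 0.44, adjusted p = 0.304). Both had Control arrays that ranged more widely than the change, from 0.11 to 0.51 for Mvd and from 3.03 to 3.41 for Idi1.

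None of the 3 genes from squalene to lanosterol passed in limma. At an unadjusted p below 0.05, 1 was higher, where 20.8% of all tested genes were higher and 20.5% lower. Fdft1, squalene synthase, had levels of 4.13, 4.08 and 4.05 on PRF arrays and of 3.79, 3.92 and 3.96 on Control arrays. The groups did not overlap, yet the change of 0.20 missed the threshold (95% interval 0.02 to 0.37, adjusted p = 0.0896). Sqle, squalene epoxidase, also did not overlap, with 4.77, 4.83 and 4.77 on PRF arrays and 4.62, 4.75 and 4.58 on Control arrays, and a change of 0.14 (adjusted p = 0.188). Lss, which closes the ring system, overlapped (change 0.11, adjusted p = 0.318), and its 2 further probes had changes of 0.28 and 0.17.

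Of the 8 genes from lanosterol to cholesterol, 2 rose, 0 fell and 6 did not pass, with a median of 0.12. The shares of all tested genes were 16.2% called higher and 13.2% lower. Msmo1, the methylsterol monooxygenase, had levels of 6.05, 6.21 and 6.00 on PRF arrays and of 5.83, 5.75 and 5.70 on Control arrays. It had the largest change of the 26 genes, 0.33 (SE 0.08, adjusted p = 0.0263), without overlap, and its further probe rose by 0.37 (adjusted p over all probes = 0.0252). Hsd17b7, the ketoreductase of the same demethylation sequence, had levels of 2.69, 2.60 and 2.47 on PRF arrays and of 2.28, 2.39 and 2.17 on Control arrays. Its change of 0.31 was just inside the threshold (SE 0.09, adjusted p = 0.0497), with a further probe at 0.35 (adjusted p over all probes = 0.042). Nsdhl, the dehydrogenase that works between these enzymes, averaged 1.45 ± 0.10 on PRF arrays and 1.41 ± 0.16 on Control arrays (SD, n = 3 each), and the groups overlapped (limma adjusted p = 0.77).

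Cyp51, the lanosterol demethylase, lay just outside the threshold. Its levels were 2.12, 2.10 and 1.94 on PRF arrays and 1.84, 1.85 and 1.64 on Control arrays, a change of 0.27 (SE 0.09, adjusted p = 0.0662), and its dimmer probe rose by 0.42 (adjusted p over all probes = 0.0321). Tm7sf2, a sterol reductase, had a change of 0.15 (adjusted p = 0.202). Sc5d, the desaturase, had one of 0.10 (adjusted p = 0.303), with no overlap in either gene. Ebp, the sterol isomerase, overlapped (change 0.08, adjusted p = 0.402). Dhcr7, which reduces 7-dehydrocholesterol to cholesterol, was the only one of the 18 enzymes with a negative change (-0.05, 95% interval -0.27 to 0.18, adjusted p = 0.754).

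None of the 3 sterol transport genes passed in limma, and the Niemann-Pick partners pointed in opposite directions. At an unadjusted p below 0.05, 1 was higher and 1 lower, where 20.8% of all tested genes were higher and 20.5% lower. Npc1, the membrane protein through which cholesterol leaves late endosomes, had levels of 2.75, 2.86 and 2.90 on PRF arrays and of 2.96, 3.08 and 3.06 on Control arrays. PRF arrays all lay below Control arrays, and the change of -0.20 missed the threshold (95% interval -0.38 to -0.02, adjusted p = 0.0868). Npc2, the soluble protein that hands cholesterol to NPC1, had levels of 5.29, 5.25 and 5.30 on PRF arrays and of 5.08, 5.10 and 5.11 on Control arrays. Here PRF arrays all lay above Control arrays, with a change of 0.18 that also missed it (95% interval 0.05 to 0.32, adjusted p = 0.0567). The log2 ratio of Npc1 to Npc2, set to a mean of 0 over the Control arrays, was -0.48, -0.34 and -0.34 on PRF arrays and -0.06, 0.05 and 0.01 on Control arrays. These groups were apart under any scaling by a constant, but the pair was chosen after its values were seen and was not tested. Stard4, a cytosolic sterol carrier, overlapped (change 0.10, adjusted p = 0.425).

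Over all 26 members, 22 had a positive change and the median was 0.14, against -0.01 for all tested genes. In 11 members every PRF array lay above every Control array and in 2, Srebf1 and Npc1, below, which is 42.3% and 7.69% of the members against 25.6% and 25.6% of all genes. An unadjusted p below 0.05 was reached by 10 members, 8 higher and 2 lower, where 20.8% of all tested genes were higher and 20.5% lower at that threshold. The 20 members that did not pass had changes from -0.20 to 0.27, and their 95% intervals reached from -0.38 to 0.49, so changes of the size of those called are not excluded for many of them. By rank among the 15069 changes, Msmo1 stood at percentile 82.5 and Srebf1 at 15.6, both well inside the range of the array.

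**Figure D2:**
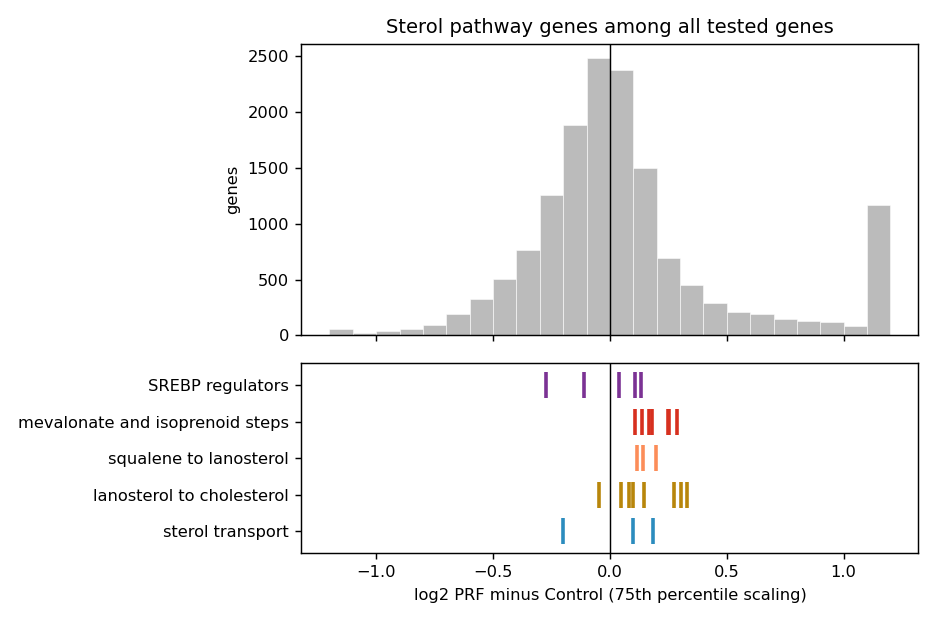
Upper panel, number of tested genes by log2 change, PRF minus Control, in bins of 0.1 after 75th percentile scaling, with larger changes gathered in the outer bars. Lower panel, 1 tick for each of the 26 members by its step in the pathway, all between -0.27 and 0.33.

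Probes of the same gene gave a second reading for 12 genes, with 29 probes in all. In 11 of the 12 the changes of all probes had the same sign. Over all 43 member probes 12 rose and 1, that of Srebf1, fell, where 18.4% of all 34838 tested probes were called higher and 12.7% lower, and 38 had a positive change. Probes of 1 gene share the same RNA and are not replicates.

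**Figure D3:**
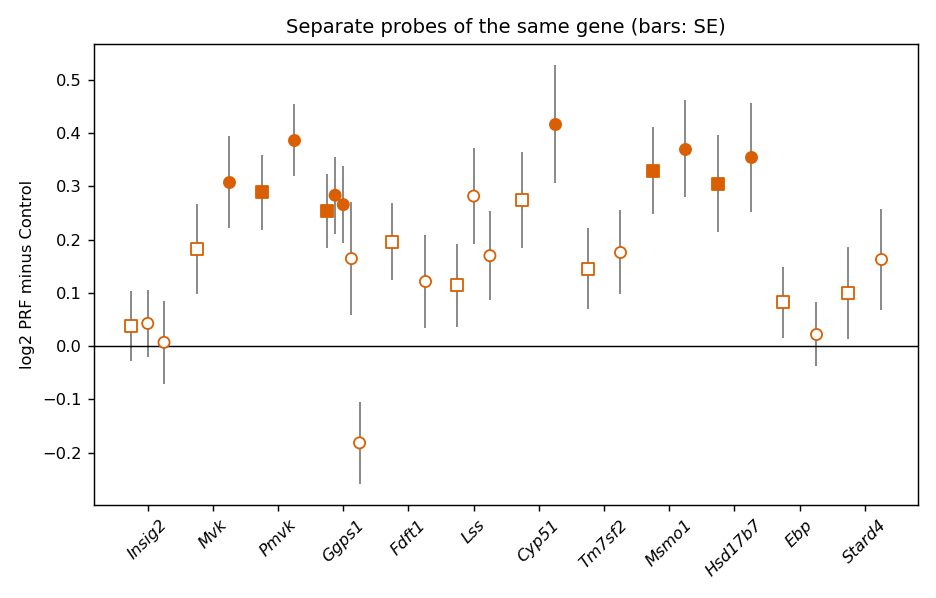
Change of each probe of the 12 genes with several probes, log2 PRF minus Control with its SE. Squares are the brightest probe, which stands for the gene, circles are further probes, and filled symbols passed an adjusted p of 0.05 over all probes. The only probe below 0 is 1 of 5 of Ggps1.

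How far these results depend on the scaling was then examined, since the arrays differed in their 75th percentile signal, at 634, 544 and 553 for PRF and 674, 635 and 597 for Control. Without scaling, on the deposited scale, the median change of all genes was -0.15 and that of the members -0.01. With the arrays set to the 7 spike-in probes that were well above background on all arrays, RNAs added in fixed amounts during labelling, these medians were -0.20 and -0.06. With the median of the tested probes they were -0.06 and 0.08, and with quantile normalization -0.05 and 0.12. The members' median therefore changed sign with the scaling. Its distance above the median of all genes was 0.14 under the 4 constant scalings and 0.17 with quantile normalization. Under the constant scalings 22 of 26 members stood above the median of all genes, among them 17 of the 18 enzymes, while Srebf1, Scap, Npc1 and Dhcr7 stood below it. A constant cannot alter these distances or counts. With quantile normalization, which can, 23 members and 18 enzymes stood above it, and Srebf1, Scap and Npc1 below.

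The calls moved accordingly. With the median of tested probes, Pmvk and Msmo1 were called higher and Srebf1 and Npc1 lower, against 14.7% of all genes higher and 18.4% lower. With quantile normalization, Pmvk and Ggps1 were called higher and Srebf1 lower, against 13.8% and 18.4% of all genes. On the deposited scale no member was called higher and Srebf1 and Npc1 were called lower, against 10.9% and 20.6%. With spike-in scaling none was higher and Srebf1, Scap and Npc1 were lower, against 11.9% and 36.5%. At 11.5% of the members, the share called lower with spike-in scaling was below that of all genes. Among all genes called, 55.0% were higher with the 75th percentile, 44.3% with the median, 42.8% with quantile normalization, 34.6% without scaling and 24.7% with spike-ins.

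Srebf1 was called lower under all 5. On the deposited scale its log2 signal was 12.93, 12.83 and 12.91 on PRF arrays and 13.37, 13.27 and 13.27 on Control arrays, a change of -0.41 (SE 0.09, adjusted p = 0.0148), and with spike-in scaling the change was -0.47 (adjusted p = 0.00522). Npc1 was called under 3 of the 5, at -0.25 with the median (adjusted p = 0.0438), -0.34 unscaled (adjusted p = 0.0302) and -0.40 by spike-ins (adjusted p = 0.0134). Msmo1 on the deposited scale read 15.36, 15.30 and 15.11 on PRF arrays and 15.23, 15.06 and 14.92 on Control arrays. These overlapped, and the change of 0.19 did not pass (95% interval -0.10 to 0.48, adjusted p = 0.276). On that scale 1 member, Ggps1, had all PRF arrays above all Control arrays and 4, Srebf1, Scap, Dhcr7 and Npc1, had them all below, against 13.5% and 37.3% of all genes.

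**Figure D4:**
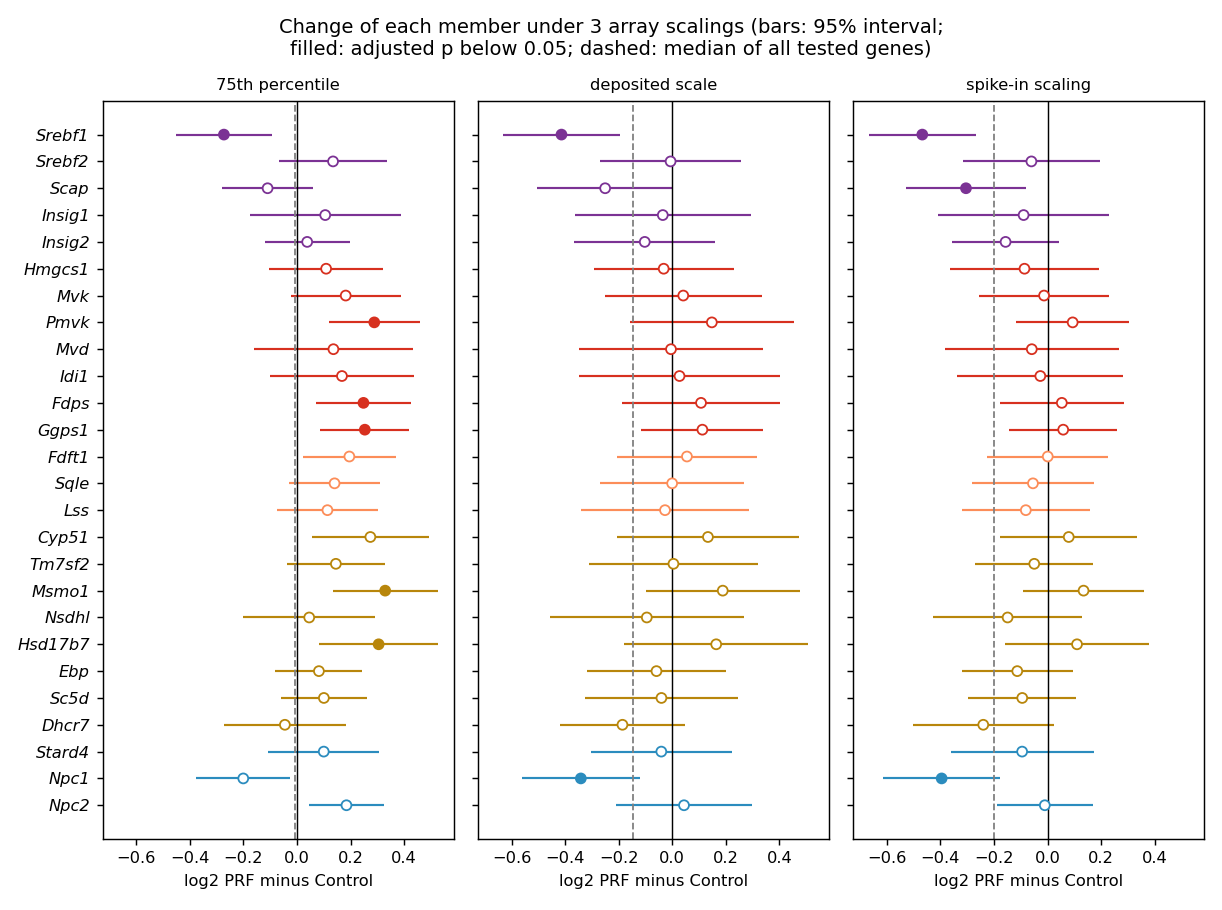
Change of each member, log2 PRF minus Control with its 95% interval, for the 75th percentile (left), no scaling and spike-ins. Filled points passed an adjusted p of 0.05, colours are the steps of the pathway, and the dashed line is the median of all tested genes, at -0.01, -0.15 and -0.20. Srebf1 is filled in all 3 panels, and the 5 enzymes filled on the left are open in the other 2.

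The arrays lay in 2 slide rows. Row 1 held PRF replicate 2 and Control replicates 1 and 3. Row 2 held PRF replicates 1 and 3 and Control replicate 2. The members' median was 0.20 within row 1 and 0.06 within row 2, and the difference between the rows was not tested. The change of Srebf1 was -0.27 in row 1 and -0.25 in row 2, that of Pmvk 0.27 and 0.28, and that of Msmo1 0.44 and 0.28. For Hsd17b7 it was 0.37 and 0.19, for Fdps 0.32 and 0.16 and for Ggps1 0.32 and 0.22. No member passed within a row, where 1 group has a single array that is assumed to vary like the others. With row as a block, Msmo1 alone was called (0.36, adjusted p = 0.0359), and Srebf1 missed the threshold (adjusted p = 0.0857).

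Each of these calls was lost when certain single arrays were left out. Pmvk, Fdps and Hsd17b7 were still called without PRF replicate 3 (adjusted p = 0.0296, 0.0398 and 0.0382) and missed the threshold without any other array (adjusted p up to 0.077, 0.138 and 0.137). Ggps1 was still called only without PRF replicate 1 (adjusted p = 0.0323, otherwise up to 0.12), and Msmo1 only without PRF replicate 3 (0.0301) or Control replicate 1 (0.0461), with an adjusted p of up to 0.0838 otherwise. The sign of all 6 called genes was the same in each of 20 alternative settings. Among these Srebf1 was called in 10, Msmo1 in 9, Pmvk in 8, and Fdps, Ggps1 and Hsd17b7 in 6 each.

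4 related lists of genes were counted beside the members, against 16.2% of all genes called higher and 13.2% lower. Of 14 genes for SREBP cleavage and sterol-regulated degradation in the endoplasmic reticulum, 1 rose and 2 fell. Rnf145, a ubiquitin ligase of that membrane, fell by 0.34 (adjusted p = 0.0265), though on 1 of its 3 probes, and Ube2g2, a conjugating enzyme of that degradation, rose by 0.33 (adjusted p = 0.0266). The rise of Ube2g2 was not called unscaled (adjusted p = 0.25) or by spike-ins (adjusted p = 0.282). Among 20 genes of fatty acid synthesis and other SREBP targets, 0 rose and 2 fell, Rdh11, a retinol dehydrogenase, by 0.27 on 1 of its 2 probes (adjusted p = 0.0208) and Pcyt2, of phosphatidylethanolamine synthesis, by 0.25 (adjusted p = 0.0229). The median change of this list was 0.01, and an unadjusted limma p below 0.05 was reached by 3 genes in each direction, against 20.8% of all genes higher and 20.5% lower. Of 14 genes of the isoprenoid branch and prenylation none was called by limma (median -0.05), and 4 were lower and 0 higher at an unadjusted p below 0.05, with the same shares of all genes beside them.

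Among 19 tested partners of sterol handling, 1 rose and 4 fell. Aster proteins carry cholesterol from the plasma membrane to the endoplasmic reticulum, and 2 of their listed genes, Gramd1c and Gramd1b, moved in opposite directions. Values of Gramd1a, also on this list, are not given here. Gramd1c rose by 0.63 (SE 0.08, adjusted p = 0.00192), with 0.45, 0.52 and 0.60 on PRF arrays and -0.13, -0.17 and -0.02 on Control arrays. Gramd1b fell by 0.44 (SE 0.08, adjusted p = 0.00951), with 0.10, 0.06 and 0.19 on PRF arrays and 0.44, 0.59 and 0.65 on Control arrays. The Gramd1b call rested on 1 of its 2 probes. Both genes moved further than any member, and their calls held under all 5 scalings. Acat1, the mitochondrial thiolase, fell by 0.26 (adjusted p = 0.0288). Over the 20 alternatives, Gramd1c was called in 18, Gramd1b in 17 and Acat1 in 9.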

How the data were processed

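RNA of 6 samples was hybridised to 1-colour Agilent arrays after Cy3 labelling with a low-input kit, per the labels' protocols. The deposited intensity values were, per the file headers, written by version 10.7.3.1 of Agilent Feature Extraction, with background subtracted and spatial trends removed within each array, and were not scaled between arrays. The authors' deposited series table holds the same intensity values within a relative tolerance of 0.0001. The array design names an older mouse build (mm9, per the file headers), so gene positions are not given apart from RefSeq promoter windows. Spots flagged as outliers and control spots were left out, spots of a probe were averaged on the log2 scale, and the 75th percentile of each array was subtracted. Probes entered the test when all 3 arrays of at least 1 group were flagged well above background, which left 34838 of 56605. Accessions were matched to RefSeq transcripts of GRCm38.p6 (32994 probes, 22911 genes, 23611 probes without a name). PRF was compared with Control by lmFit and eBayes of limma 3.58.1 under R 4.3.3, with no covariate. On simulated arrays limma recovered 37% of probes changed 1.5-fold and 71% changed 2-fold among 34826 probes, with 3 false calls. Only 100 probes were changed at each fold there, whereas 10833 probes were called in the data. The adjustment was therefore stricter in the simulation, and its recovery rates do not give those of the test used here. Every member on the array is named. From each related list the largest called changes are named, at most 3 in each direction, apart from some that are not reported here. Levels per array are given for called members and regulators and, chosen after their values were seen, for 5 members near the threshold or without overlap. The members and lists were chosen with earlier results of these data known. Replicate numbers occur in both groups, and deviations of same-numbered arrays from their group means correlated at 0.145, -0.0838 and 0.0458. Same-numbered arrays lay in different slide rows, so these correlations cannot decide whether they were pairs. The main test did not pair them, and replicate number was tried as a block. The alternatives tried were 4 other scalings, normexp background correction (offset 50, on median spot signals because mean signals were not used here), the series table, other filters, slide row and replicate as blocks, other variance and probe rules, and each array left out.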

Additional observations from a re-analysis of the deposited data

How the results depend on the processing

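Across 20 alternatives, 393 of 520 member values kept their sign and their side of the threshold, 75 lost a call, 15 gained one and 37 changed sign without passing, 26 of these unscaled or by spike-ins. No called member changed sign. The count of members called higher, 5 in the report, was 2 with the median of tested probes and with quantile normalization, 0 unscaled, by spike-ins, without the filter on dim probes and within each slide row, 1 with row as a block and 8 with a trended, robust variance. The count called lower, 1 in the report, was 2 with the median, unscaled, with normexp and with the trended variance, 3 by spike-ins, and 0 without the filter, with row as a block and within each row. With the replicate number as a block, 1 member was called higher, Cyp51, and 0 lower, and 5 related genes were called lower. Leaving out 1 array gave 0 to 4 members called higher and 0 to 1 lower. Without PRF replicate 3 the counts were 4 and 1. Without Control replicate 2 or 3 or PRF replicate 2 they were 0 and 0, and without Control replicate 1 or PRF replicate 1 they were 1 and 0. Msmo1 was called without Control replicate 1 and Ggps1 without PRF replicate 1. The members' median was 0.0815 with the median of tested probes, -0.0054 unscaled, -0.0594 by spike-ins, and 0.195 and 0.0596 within rows 1 and 2. In the related lists the 2 genes called higher became 1 unscaled, by spike-ins, without the filter and with row as a block, 4 with normexp, 6 with the trended variance and 0 within each row, with 1 to 3 when an array was left out. The 8 called lower became 14 with the median, 13 unscaled and with the trended variance, 28 by spike-ins, 5 without the filter and with row as a block and 0 within each row, with 2 to 5 when an array was left out. On the whole array 10833 probes were called, 3209 within row 1, 162 within row 2, and 7220 to 10684 when an array was left out. The unfiltered setting left the members' changes as they were, adjusts over more genes and estimates the variance over more probes. The cause of the moved calls was not tested for any setting. All member probes were well above background on all arrays, and the 3 arrays per group limit the precision.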
